A study of Arabidopsis thaliana with 6 samples.

Results

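In whole roots of *ninja-1*, 115 probe sets were at least doubled over WT. They were chosen by their values and exclude 21 listed probe sets, among them jasmonate, triterpene and lectin genes. The mean of the WT arrays had to be at least 4 on the log2 scale, the *ninja-1* mean at least 1 log2 unit (2-fold) higher, and every *ninja-1* array above every WT array. These thresholds were met by 136 of the 22746 probe sets other than the array's own controls, and by 0.958% of the 14193 with a WT mean of at least 4, here called expressed. Removing the listed ones left the 115 members. Because this contrast chose them, their differences are given as a description and without a test.

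Total RNA came from roots of 5-do seedlings grown on plates at 21°C with 14 h of light, without treatment. The WT group was Col-0 and the other group was *ninja-1* in that background, and both carried the *JAZ10*pro-GUSPlus (*JGP*) reporter, in which the promoter of a jasmonate-responsive gene drives a β-glucuronidase. Each genotype had 3 biological replicates, every replicate pooled 120 roots and was read on 1 Affymetrix ATH1 array. A single *ninja* allele was arrayed and the samples were whole organs, so that a change in the number of cells of a type and a change in RNA per cell cannot be told apart.

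NINJA is an adaptor that connects JAZ repressors to TOPLESS co-repressors, and jasmonoyl-isoleucine relieves this repression by causing JAZ proteins to be degraded. The pathway is known for switching on chemical defences. In Arabidopsis these include glucosinolates, sulphur-containing glucosides that are transported between tissues and that yield toxic or less toxic products when myrosinases and specifier proteins act on them. Glutathione transferases, glutaredoxins and methionine sulfoxide reductases belong to the thiol chemistry of the cell, and class III peroxidases act on cell wall polymers and on hydrogen peroxide.

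The 6 arrays had medians between 5.95 and 6.03, and the lowest value on any of them, here called the floor, was 2.11. Pearson's r was 0.998 to 0.999 within and 0.994 to 0.996 between genotypes (over probe sets, which are not replicates). The probe set matched to *NINJA* read 9.60, 9.52 and 9.72 in WT and 7.30, 7.05 and 7.13 in *ninja-1*. Of the root marker list, only the root hair expansins *EXPA7* and *EXPA18* could be named, with differences of 0.15 and 0.24. Of the leaf and shoot list, *LHCB4.1*, *RCA* and *SBPASE* could be named; all were expressed, and they differed by 0.46, 0.11 and 0.15. None of these 5 markers was called, and their part in the members' differences was not tested. No flower marker could be named.

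Differences of the members ran from 1.01 to 3.33 log2 units with a median of 1.42, or 2.01-fold to 10.03-fold with a median of 2.67-fold. The median over all expressed probe sets was -0.02. Most of the members were moderate: 67 lay between 1 and 1.5, 33 between 1.5 and 2, 13 between 2 and 3, and 2 above 3. WT means ranged from 4.03 to 12.44 with a median of 6.84, against 7.66 for expressed probe sets, and 47 members lay below the first quartile of expressed probe sets while 15 lay above the third. Across the 115 members, level and difference were not ordered together (Spearman's rho -0.06, a description, since both use the same WT arrays). Probe set values depend on the probes as well as on the transcript, so placing probe sets by level does not rank their transcripts.

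**Figure D1:**
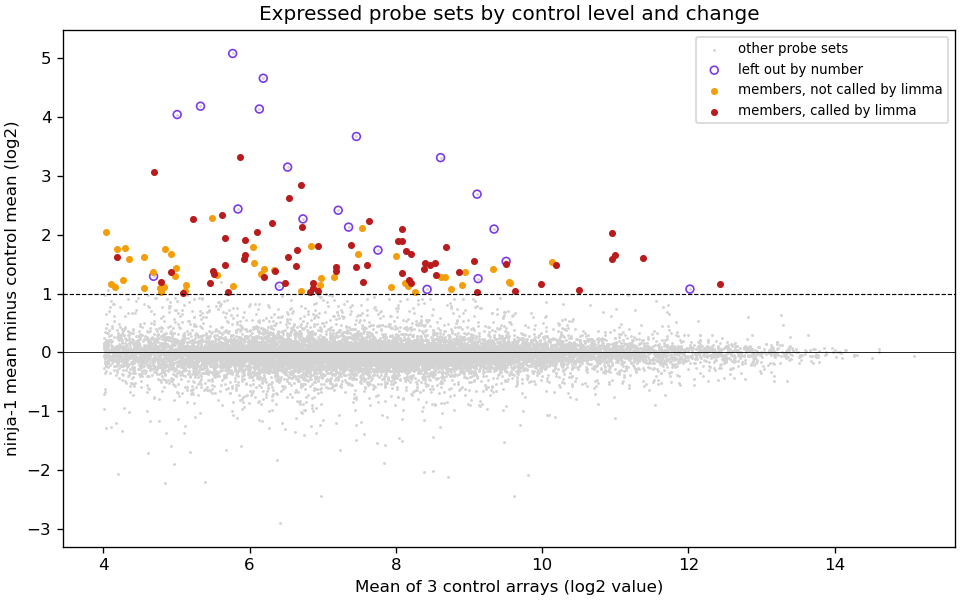
Mean of the 3 WT arrays (x axis, log2) against the *ninja-1* mean minus the WT mean (y axis, log2) for the 14193 expressed probe sets. Members are filled points, the 21 left-out probe sets are open circles, and the dashed line is the threshold of 1; members occur from WT means of 4.03 to 12.44 and mostly lie between 1 and 2.

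Limma called 67 of the 115 members higher (adjusted p under 0.05 and at least 2-fold, Benjamini-Hochberg over all probe sets), beside 0.492% of all probe sets and 0.613% of expressed ones. Separation of the arrays, which the rule required of every member, was found upward in 7.75% of all probe sets and in 11.1% of expressed ones. Leaving out any 1 array lowered the members called to between 13 and 39, and fitting the replicate number as a block to 0, whereas they were 110 with dim probe sets filtered out and 101 with arrays centred on their median. Nothing is read from these counts, because they rest on the contrast that chose the members. Since every member differs by at least 1, a call depends largely on spread, and wider spreads among uncalled members are built in. The median SD of the 48 uncalled members was 0.26 in WT and 0.32 in *ninja-1*, against 0.13 and 0.12 for the called ones. Over all members the lowest *ninja-1* array lay a median of 1.01 above the highest WT array, 59 members had such a gap of at least 1, and 4 had one under 0.1.

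A single gene could be assigned to 78 members, several genes to 6 and none to 31. For 22 of the 78 the name came from a match to the study's gene table, which holds only called genes, so named members are called more often by construction (65 of 84, against 2 of 31 unnamed). Of the members, 10 have probe sets marked as able to bind several transcripts, among them those named *NSP3*, *MSRB7*, AT3G55290 and AT4G23420. The 2 called members without a name, 252971_at and 256321_at, fit *PRP4* and *LOX1* of that gene table but could not be told apart. The role groups below were set from textbook knowledge after the values had been seen.

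Defence and glucosinolate genes numbered 6, with differences of 1.03 to 2.84. *IGMT1* (AT1G21100, by match), a methyltransferase of indole glucosinolate synthesis, read 6.64, 6.67 and 6.81 in WT and 9.58, 9.50 and 9.53 in *ninja-1*, 7.14-fold higher. AT1G14960, of the polyketide cyclase and lipid transport family, read 8.27, 8.03 and 7.94 against 10.51, 10.21 and 9.83. The *IGMT1* arrays lay within 0.2 of each other in both genotypes, whereas those of AT1G14960 were more spread in *ninja-1*, with replicate 3 lowest. *IGMT1* has close tandem copies in the genome, and the match does not show which copies the probes read.

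A defensin-like gene, AT2G43535, read 8.16, 8.31 and 7.93 in WT and 9.82, 9.86 and 9.91 in *ninja-1*. *NSP3* (AT3G16390, by match), a nitrile specifier protein that directs glucosinolate breakdown towards nitriles, read 11.54, 11.34 and 11.25 against 13.06, 12.84 and 13.05. Both were thus about 3-fold higher from levels well above the floor, at 3.31-fold and 3.05-fold. A second defensin-like gene, AT4G22212, stood near the top of the array's range and was higher by 1.17, with WT arrays at 12.57, 12.40 and 12.35 and *ninja-1* arrays at 13.63, 13.64 and 13.57. AT2G31790, a glucosyltransferase of glucosinolate synthesis, was higher by 1.03.

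Further glucosinolate genes stood in other role groups. *GTR1* (AT3G47960), an importer that loads glucosinolates into the phloem, was just past the threshold, reading 6.77, 6.73 and 6.96 in WT and 7.89, 7.82 and 7.82 in *ninja-1*. Its partner *GTR2* had a WT mean of 9.32 and a *ninja-1* mean of 9.98, below the doubling and not called. *GSTF11* and *GSTU20*, both placed in aliphatic glucosinolate synthesis, are given with the glutathione transferases. Of the other genes on the glucosinolate lists that could be named and were expressed, the glucosyltransferase *UGT74B1* differed by 0.40, the β-glucosidase *BGLU25* by 0.67 and the root myrosinase *PYK10* by 0.30, and none was called.

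One lectin was a member: AT5G35940, a mannose-binding jacalin-type lectin, read 9.02, 9.09 and 9.11 in WT and 10.44, 10.56 and 10.88 in *ninja-1*, or 2.94-fold higher.

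Outside the members of other or unknown role, the group labelled redox and detoxification was the largest. Its 14 members differed by 1.18 to 3.33 (median 1.54), and it held both members above 3. It gathers several enzyme families, with *GSTF11* and *GSTU20* among them, so its size depends on how the groups were drawn. AT1G14120, of the 2-oxoglutarate-dependent oxygenase family, read 6.22, 5.59 and 5.79 in WT and 9.29, 9.29 and 9.01 in *ninja-1*, 10.03-fold higher. AT3G55290 (by match), a short-chain dehydrogenase, read 4.83, 4.40 and 4.84 against 7.89, 7.77 and 7.60, 8.35-fold higher. In these genes the lowest *ninja-1* array stood 2.78 and 2.76 above the highest WT array. AT1G06620, another oxygenase of the first family, read 7.68, 7.72 and 7.49 against 9.65, 9.98 and 9.94, and a further one, AT5G20550, was higher by 1.23.

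*GSTF11* (AT3G03190, by match) read 6.44, 6.19 and 5.68 in WT and 8.28, 8.21 and 7.96 in *ninja-1*, and *GSTU20* (AT1G78370) was higher by 1.67, with its *ninja-1* replicate 3 at 8.50, below the others at 9.65 and 9.30. Most of their named relatives were not higher. The annotation named 12 expressed ones, of which *GSTU20* was the only member, 9 differed downward, the median was -0.23 and none was called (at an unadjusted p under 0.05, 2 were higher and 3 lower). *GSTU26* came next at 0.75, and *GSTF4* and *GSTU16* were lowest at -0.54.

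The methionine sulfoxide reductases, which repair oxidized methionine, included *MSRB7* (AT4G21830, by match) and *MSRB6* (AT4G04840), higher by 1.58 and 1.36. *MSRB7* read 10.70, 11.02 and 11.14 in WT and 12.64, 12.54 and 12.44 in *ninja-1*. *MSRB6* read 8.89, 8.86 and 8.87 against 10.28, 10.24 and 10.18. Both genes sit beside relatives with smaller differences: *MSRB9*, near *MSRB7*, differed by 0.77, while *MSRB5* and *MSRB3*, near *MSRB6*, differed by 0.31 and -0.01. *MSRA5* differed by -0.04.

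Among the thiol oxidoreductases, the glutaredoxin *GRX480* (AT1G28480), which binds TGA transcription factors, was higher by 1.91 and the glutaredoxin AT1G06830 by 1.31. The cytochromes P450 *CYP705A25* and *CYP89A2* were higher by 1.45 and 1.18, *SDR4* by 1.48 and the NAD(P)-binding protein AT4G23420 by 1.50, all named by match. The 7 expressed P450 genes named by the annotation held no member and differed by -0.57 to 0.46. The other expressed P450 genes were named by match, which finds only called genes; besides the members these were the left-out *CYP705A5* at 3.31 and *CYP71A16* at 2.42.

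**Figure D2:**
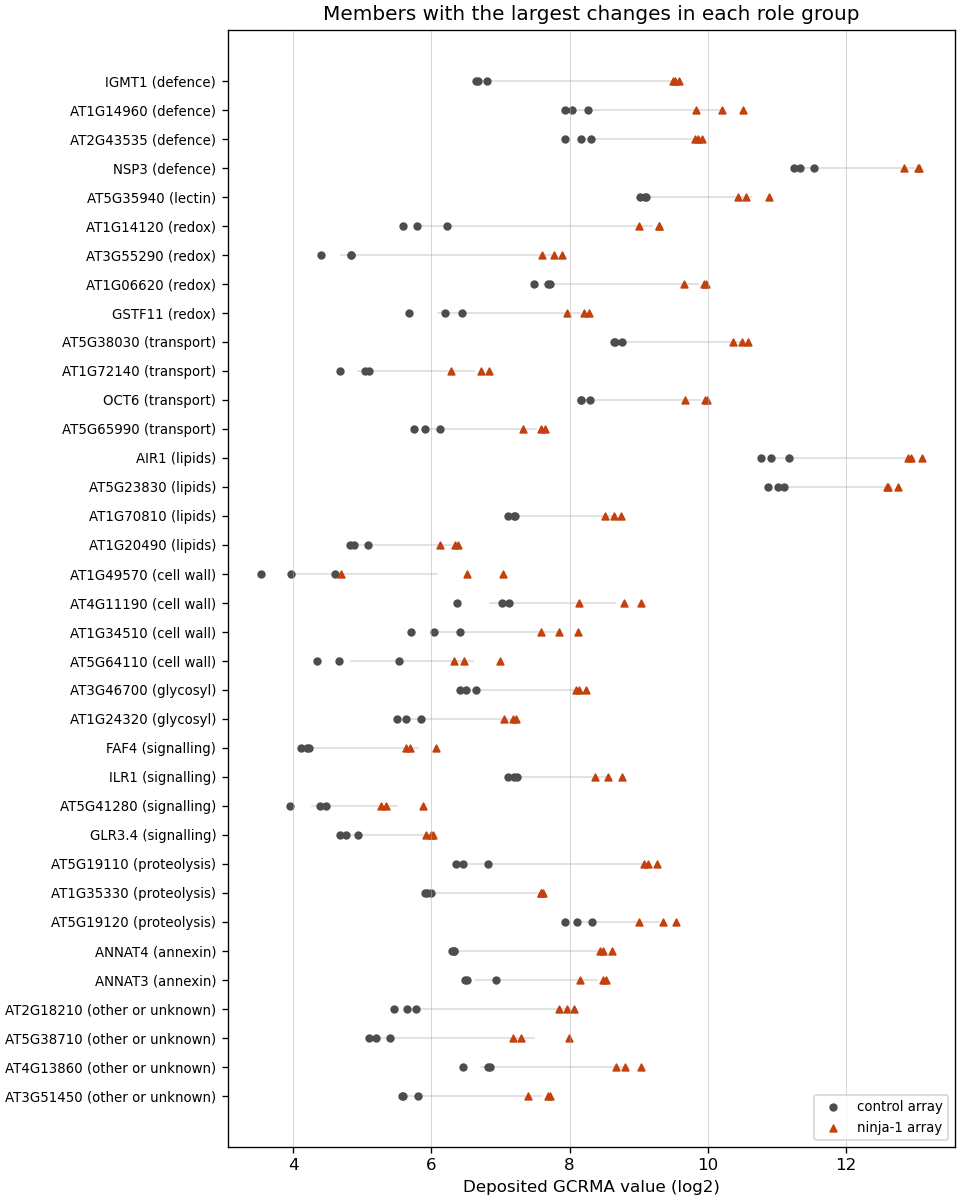
Deposited GCRMA value (x axis, log2) on each of the 3 WT arrays (circles) and 3 *ninja-1* arrays (triangles) for up to 4 members with the largest difference in each role group; grey lines join the group means. The groups do not overlap, as the rule requires, and the gap is narrowest for the peroxidase AT1G49570, where *ninja-1* replicate 3 lies 0.08 above the highest WT array.

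Transporters made up 10 members, higher by 1.02 to 1.83. AT5G38030, of the MATE family of exporters, read 8.76, 8.64 and 8.66 in WT and 10.50, 10.36 and 10.58 in *ninja-1*, 3.46-fold higher. A probe set shared by the MATE genes AT4G21903 and AT4G21910 was higher by 1.83. *OCT6* (AT1G16370, by match), an organic cation transporter, read 8.16, 8.29 and 8.17 against 9.67, 9.99 and 9.96. Named relatives of *OCT6* did not share its difference: *OCT4* stood at 0.02, *OCT5* at -0.21 and *OCT1* at -0.81.

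AT1G72140, of the NPF family of nitrate and peptide transporters, read 5.09, 5.04 and 4.68 in WT and 6.28, 6.71 and 6.83 in *ninja-1*. The amino acid transporter AT5G65990 read 6.12, 5.90 and 5.74 against 7.59, 7.64 and 7.32. They were 3.19-fold and 3.01-fold higher. A further 3 NPF probe sets were members, AT1G22550 at 1.48, AT1G22570 at 1.11 and a set shared by AT3G45660 and the nitrate excretion transporter *NAXT1* at 1.48. *SWEET16* (AT3G16690), a sugar carrier of the vacuole membrane, was higher by 1.18. The other expressed SWEET genes were not doubled: *SWEET17*, also vacuolar, differed by 0.37, *SWEET14* by 0.11, *SWEET13* by -0.18 and *SWEET2* by -0.87.

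**Figure D3:**
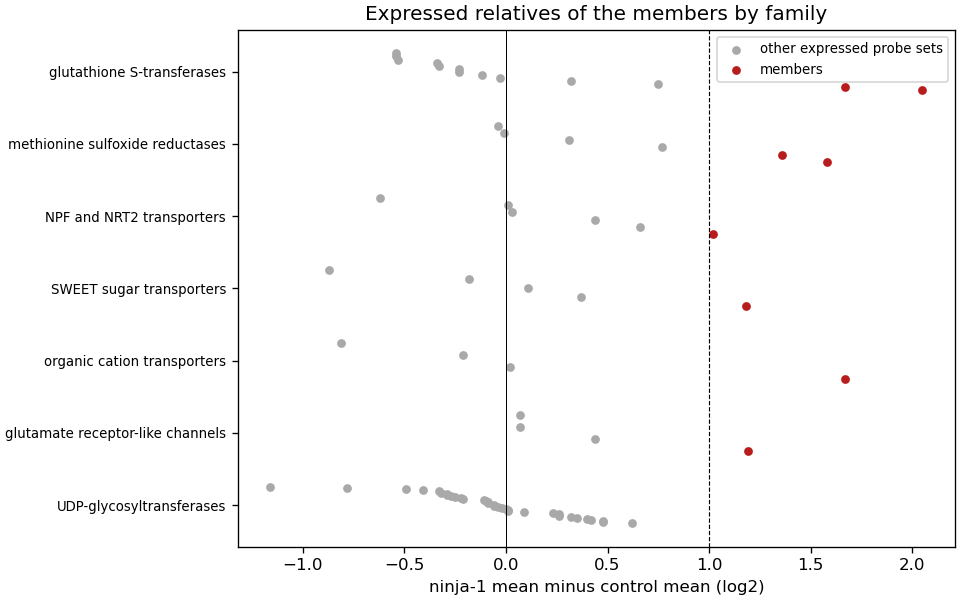
Difference between *ninja-1* and WT means (x axis, log2) for every expressed probe set that could be named in 7 gene families (rows); points in a row are spread vertically for visibility, members are red, other probe sets grey, and the dashed line marks the doubling. Loci without a family symbol are not plotted. Each of the first 6 families holds 1 or 2 members beside relatives under 1, and the UDP-glycosyltransferases, from -1.16 to 0.62, hold none under their family symbols.

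Lipid-related members numbered 8. *AIR1* (AT4G12550, by match), a lipid transfer protein first found as auxin-induced in roots, read 11.17, 10.91 and 10.77 in WT and 12.94, 13.10 and 12.90 in *ninja-1*. AT5G23830, with an MD-2-related lipid recognition domain, read 11.02, 11.10 and 10.87 against 12.59, 12.61 and 12.75. These probe sets were 4.09-fold and 3.14-fold higher from WT values near 11.

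AT1G70810, a calcium-dependent lipid-binding protein, read 7.11, 7.20 and 7.21 in WT and 8.75, 8.64 and 8.51 in *ninja-1*. AT1G20490, of the AMP-dependent synthetase family that activates carboxylic acids, read 5.08, 4.88 and 4.82 against 6.34, 6.12 and 6.38. Each genotype spanned less than 0.3 in both genes. The remaining lipid members were a probe set shared by the methyltransferases AT4G33120 and AT4G33110 (1.89), one shared by the epoxide hydrolase *SEH* and AT2G26750 (1.39), AT5G23820 (1.35, by match) and the α/β hydrolase AT5G06570 (1.03).

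The cell wall group held 10 members, 6 of them class III peroxidases. Limma called 4 of the 10, beside 0.613% of expressed probe sets, and nothing is read from this count. The peroxidase AT1G49570 read 4.60, 3.97 and 3.53 in WT and 7.04, 6.52 and 4.69 in *ninja-1*. AT4G11190, of the dirigent family that guides lignan coupling, read 7.12, 7.02 and 6.37 against 9.03, 8.79 and 8.13. In both genes replicate 3 was the lowest array in both genotypes, and neither was called.

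The peroxidase AT1G34510 read 6.41, 5.70 and 6.04 in WT and 8.12, 7.85 and 7.59 in *ninja-1*. Another peroxidase, AT5G64110, read 4.34, 4.66 and 5.53 against 6.47, 6.33 and 6.99. The WT arrays of AT5G64110 spanned more than 1 unit. Its neighbour on the chromosome, the peroxidase AT5G64120, went the other way with a difference of -0.73 from a WT mean of 11.68, and *PER4* (by match) was called lower at -2.03. By symbol, the annotation named only 3 expressed peroxidases: AT5G64120, AT5G66390 (-0.19) and the member AT2G41480. Their median was -0.19, and at an unadjusted limma p under 0.05 1 was higher and 2 were lower. The other peroxidase members were AT2G41480 (2.49-fold), AT1G71695 (2.30-fold) and AT5G39580 (2.05-fold). They were joined by the extensin-like AT1G26250 (1.28), the glucan endo-1,3-β-glucosidase-like AT4G18340 (1.15) and the glycosyl hydrolase AT3G47010 (1.01).

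For carbohydrates and glycosyl transfer, 2 members were named. AT3G46700, a UDP-glycosyltransferase without a family symbol in the gene table, read 6.42, 6.65 and 6.50 in WT and 8.13, 8.09 and 8.23 in *ninja-1*. AT1G24320, of the glucosidase family, read 5.85, 5.50 and 5.63 against 7.05, 7.18 and 7.22. They were 3.09-fold and 2.81-fold higher. Among 34 expressed probe sets with a UDP-glycosyltransferase symbol there was no member and no call, and at an unadjusted p under 0.05 9 were higher and 7 lower. This count goes by symbol, so it leaves out AT3G46700 and also AT2G31790, the glucosyltransferase given with the glucosinolate genes.

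Signalling and hormone genes outside the jasmonate pathway were 6, with a median difference of 1.21. *FAF4* (AT3G06020, by match), of a plant family that affects shoot meristem size, read 4.20, 4.11 and 4.23 in WT and 6.07, 5.69 and 5.63 in *ninja-1*. *ILR1* (AT3G02875, by match), which releases auxin from amino acid conjugates, read 7.19, 7.24 and 7.11 against 8.76, 8.36 and 8.55. Their WT arrays lay within 0.2 of each other and the *ninja-1* arrays were further apart. The other auxin conjugate hydrolase that could be named was the left-out *ILL6*, higher by 2.44, which the paper describes as acting in jasmonoyl-isoleucine turnover. Both hydrolases were named by match, which finds only called genes.

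AT5G41280, a cysteine-rich secretory protein, read 4.39, 4.47 and 3.95 in WT and 5.27, 5.88 and 5.34 in *ninja-1*. *GLR3.4* (AT1G05200, by match), a glutamate receptor-like channel, read 4.93, 4.76 and 4.68 against 5.92, 6.02 and 6.00. Both stood in the lower part of the array's range in WT. Its relatives *GLR3.3*, *GLR3.6* and *GLR3.5* differed by 0.44, 0.07 and 0.07. *EDS5* (by match), which exports the salicylic acid precursor from chloroplasts, was higher by 1.18, and the protein phosphatase AT5G27930 by 1.04.

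Proteolysis was represented by 3 members. AT5G19110, an aspartyl protease-like protein, read 6.36, 6.45 and 6.82 in WT and 9.27, 9.08 and 9.14 in *ninja-1*, 6.15-fold higher. The RING finger protein AT1G35330 read 5.93, 5.99 and 5.90 against 7.62, 7.59 and 7.59. AT5G19120, beside AT5G19110 and of the same family, read 8.11, 7.93 and 8.33 against 9.35, 9.54 and 9.00. AT1G35330 had the tightest arrays of the group, and AT5G19120, at 2.26-fold, the widest in *ninja-1*.

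The annexins *ANNAT4* (AT2G38750) and *ANNAT3* (AT2G38760), calcium-dependent membrane-binding proteins from adjacent genes, were both named by match. *ANNAT4* read 6.33, 6.29 and 6.32 in WT and 8.44, 8.61 and 8.48 in *ninja-1*, 4.58-fold higher. *ANNAT3* read 6.49, 6.93 and 6.52 against 8.15, 8.48 and 8.53, 3.34-fold higher. No other annexin could be named on the array.

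Members of other or unknown role were 18. AT2G18210, of unknown function, read 5.77, 5.64 and 5.46 in WT and 7.96, 7.85 and 8.06 in *ninja-1*. AT5G38710, a proline dehydrogenase homologue, read 5.10, 5.19 and 5.40 against 7.99, 7.30 and 7.18. The second of these had its *ninja-1* replicate 1 above the others; they were 5.03-fold and 4.80-fold higher.

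The RNA-binding protein AT4G13860 read 6.85, 6.82 and 6.45 in WT and 9.03, 8.80 and 8.67 in *ninja-1*. AT3G51450, a strictosidine synthase-like protein, read 5.81, 5.57 and 5.59 against 7.71, 7.68 and 7.40. In both, *ninja-1* replicate 1 was highest and replicate 3 lowest. The others were higher by 1.04 to 1.81. They included the nicotinamidase *NIC3* at 1.42 and the phosphorylase superfamily genes AT4G28940, at 1.29, and AT4G24350 with AT4G24340, a shared probe set, at 1.47. *GGH1*, a γ-glutamyl hydrolase that the study's gene table files with jasmonate genes, was higher by 1.04. Another 4 members were sorted under pathways of the left-out list, and the other role groups can hold further ones. *CYP94B1*, which oxidizes jasmonoyl-isoleucine, was higher by 1.39, and *CYP705A1*, which cleaves arabidiol, by 1.18. The acyltransferases AT5G47980 and AT5G47950 of the thalianol cluster were higher by 1.90 and 1.52. *NIC3*, *GGH1*, *CYP94B1* and *CYP705A1* were named by match.

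Neighbouring loci, with AGI numbers no more than 50 apart, held 15 of the 78 members with a single gene, in 8 pairs. The share among other expressed genes was not computed, so no clustering is read from this count. Besides the annexins, the aspartyl proteases and AT5G47950 with AT5G47980, the neighbours were the NPF genes AT1G22550 and AT1G22570, the MD-2-related genes AT5G23820 and AT5G23830, and the alkaline phosphatase-like genes AT4G29690 (1.16) and AT4G29700 (1.52). The last run had 3 loci, the TRAF-like AT5G26260 (1.06), AT5G26270 of unknown function (1.81) and the TRAF-like AT5G26280 (1.53). AT5G26280 read 9.77, 10.18 and 10.46 in WT and 11.71, 11.53 and 11.76 in *ninja-1*, and was the one of the 3 that limma did not call. None of the 15 probe sets carries the suffix that marks binding to several transcripts. The 1 gene between members whose probe set could be named differed by -0.09, between AT5G47950 and AT5G47980.

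**Figure D4:**
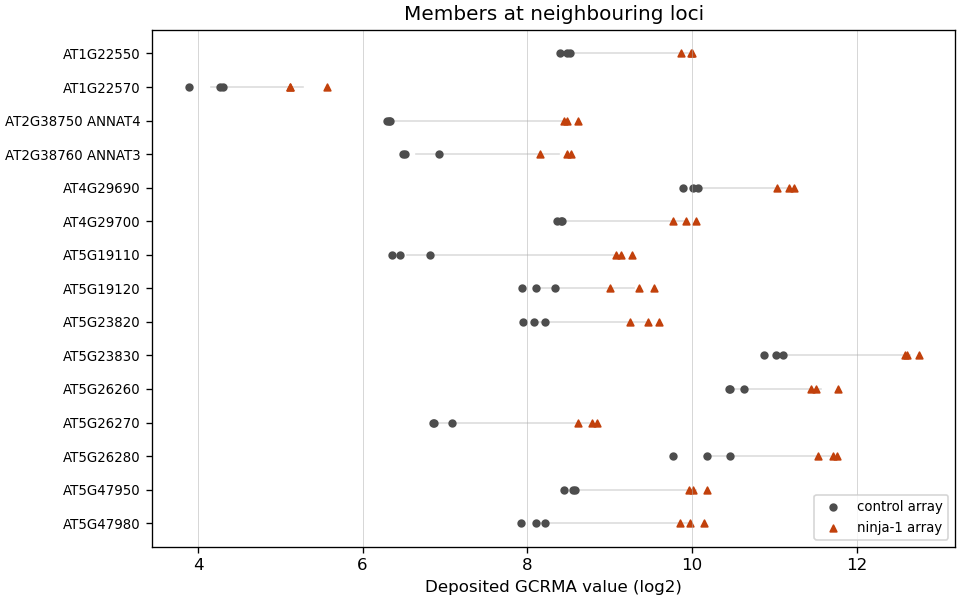
Deposited GCRMA value (x axis, log2) on each WT array (circles) and *ninja-1* array (triangles) for the 15 members at neighbouring loci (rows, in order of locus code); grey lines join the group means. Neighbours can stand at different levels and differ by different amounts, as AT5G19110 (2.62) and AT5G19120 (1.18) do.

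Within the *ninja-1* group the members did not spread evenly. Replicate 3 was the lowest of the 3 arrays in 66 members (57.4%, against 37.8% of expressed probe sets). Medians over the members were 8.57, 8.48 and 8.23 on *ninja-1* replicates 1, 2 and 3, and 6.85, 6.85 and 6.84 on the WT arrays. In 16 members replicate 3 lay at least 0.5 below both other *ninja-1* arrays, as in 1.26% of expressed probe sets. None of the 16 was called and 12 had no gene name. The others were AT1G49570, AT4G11190, *GSTU20* and AT1G06830. Both traits are partly built in: a replicate 3 this low widens the spread, which works against a call. The match, in turn, names only called genes. What sets replicate 3 apart was not tested.

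**Figure D5:**
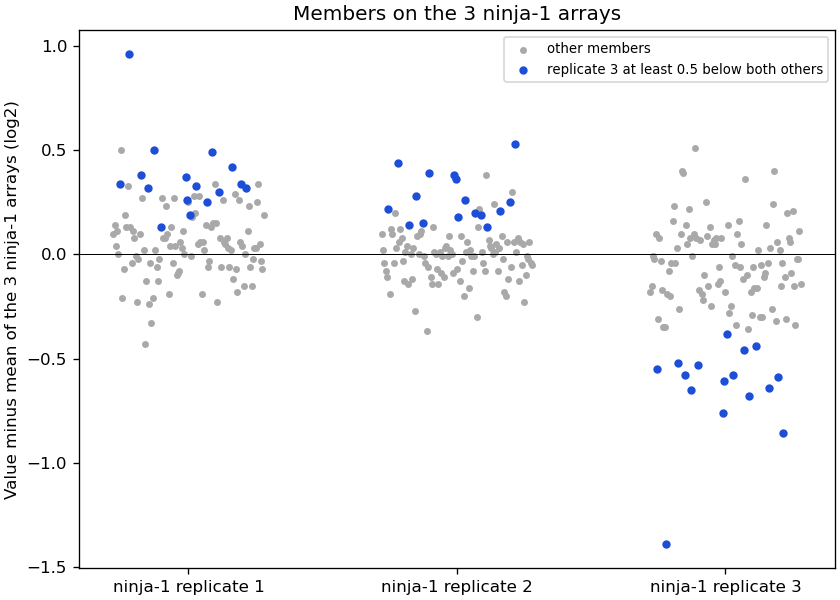
Value of each of the 115 members on each *ninja-1* array minus its mean over the 3 *ninja-1* arrays (y axis, log2); points are spread sideways for visibility and the 16 members with replicate 3 at least 0.5 below both others are blue. Replicate 3 holds the lowest points, down to AT1G49570.

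The 31 members without a gene name differed by 1.02 to 2.29 (median 1.29) from WT means of 4.11 to 9.56. The highest of them, 252269_at, read 5.64, 5.51 and 5.31 in WT and 8.11, 7.99 and 7.22 in *ninja-1*. The next, 249866_at, read 8.03, 7.40 and 7.19 against 9.80, 9.87 and 9.32. In both, replicate 3 was the lowest *ninja-1* array, and neither was called. Sequences of the members are not shown here.

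At the edges of the rule, the member with the lowest WT mean was AT1G49570, and the nearest probe set outside, the unnamed 252415_at, had a WT mean of 3.95 and a difference of 2.85. A WT mean under 4 kept out 54 probe sets that met the other thresholds. The smallest difference inside was that of AT3G47010 at 1.01, and the nearest outside was *MDHAR*, a monodehydroascorbate reductase, just under 1, with means of 9.12 and 10.12 (31 expressed and separated probe sets lay between 0.9 and 1). The narrowest separation inside was 0.001, at the unnamed 248619_at, and the nearest outside was AT3G32040, of the terpenoid synthase family, whose arrays overlapped by less than 0.01 at means of 5.60 and 6.80. Only 3 probe sets failed on separation alone.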

How the data were processed

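Log2 values of 6 ATH1 arrays were used as deposited. The authors made them in R with GCRMA (version and genome build not given in the sources used here), which corrects background by probe sequence, quantile normalizes arrays and summarizes the probes of a set. Genotypes came from the sample labels. The members and gene lists were chosen with earlier results of these data known. Means, SDs and differences were computed on the log2 scale. Calls came from limma 3.58.1 under R 4.3.3 (lmFit and eBayes, genotype as the only term, two-sided) with Benjamini-Hochberg adjustment over 22746 probe sets, and the script was tested on simulated data. The number of arrays limits the precision.

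Names came from the platform annotation through the RefSeq gene table (TAIR10.1), which gave 13436 probe sets a single gene. For 57 genes of the study's table that lacked a probe set, a probe set was taken where it alone, among the unnamed ones, had that gene's fold (tolerance 0.06 and 0.5%) and adjusted p (tolerance 6e-04), which named 55. Tried on genes already named, the match was right in 47 of 47 (Clopper-Pearson 95% lower bound 92.5%), and all 55 lie in the order of probe set numbers near an annotated gene, as 97% of annotated probe sets do. Families were taken by symbol. In each role group up to 4 members with a single gene and the largest difference are given array by array. Members nearest each threshold, the 5 with the highest WT mean and those at neighbouring loci were also named, by difference or array by array. Alternatives were other minima, scalings, limma settings, filters, a replicate block and leaving out each array.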

Additional observations from a re-analysis of the deposited data

How the results depend on the processing

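The number of members stayed within 1.5 times of 115 under every alternative tried, from 94 with a WT minimum of 5 to 169 with no minimum, and from 111 to 145 when single arrays were left out. The median difference was 1.34 to 1.49 with single arrays left out, 1.45 after centring and 1.42 after a further quantile normalization. Among the named members the lowest recomputed difference was 0.85, for AT5G06570 without *ninja-1* replicate 1.

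Calls depended more on the processing. With probe sets limited to those above 4 on at least 3 arrays, 170 probe sets were called higher in place of 112, and 110 members in place of 67. With arrays centred on their median, which shifts all probe sets by 0.034, these counts were 170 and 101. Leaving out single arrays, and so fitting fewer samples, gave 33 to 83 probe sets and 13 to 39 members, the lowest without *ninja-1* replicate 2 and the highest without replicate 3. With the replicate number as a block, limma called 0 probe sets and 0 members; the smallest adjusted p was 0.0601, and 182 of all probe sets were at least 2-fold higher at an unadjusted p under 0.05, 110 of the members among them by a contrast that chose them. No other tool was run. Deviations of same-numbered arrays correlated at 0.10, 0.05 and 0.17, and those of differently numbered ones at -0.24 to 0.18. Whether the replicate numbers mark a pairing was not tested. Trend and robust settings left 112 and 67, and the quantile step 117 and 69. The cause of the other shifts was not tested.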
